A study of Mus musculus with 14 samples.

Results

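Genes of DNA break repair and of the Fanconi pathway were followed in mouse bone marrow cells after irradiation. The group held 48 genes, taken by name from 5 roles in repair, out of 55335 genes in the count table, and all 48 were among the 21509 genes that passed the filter on low counts. The rule that names them uses no measured value. The cells carried Cdh5 CRE and a Rosa26 TdTomato reporter, in which Cre driven by the endothelial gene Cdh5 switches on a red fluorescent protein, and were sorted as Lineage-, CD45- and TdTomato+. Cre driven in this way also marks the descendants of cells that once used the promoter. RNA was sequenced from 4 untreated libraries, from 5 libraries harvested 8 days after 500 cGy of total body irradiation from a cesium source (TBI), from 3 libraries harvested 8 days after 20 µCi of radioimmunotherapy with a non-targeted IgG (IgG RIT), and from 2 libraries harvested 8 days after 20 µCi of CD45-targeted radioimmunotherapy (CD45 RIT). The series title names the radionuclide as astatine-211, an alpha emitter, and all 4 groups shared the reporter genotype. The labels do not say which libraries came from separate mice, so p-values measure the spread between libraries, which may in part be technical. Mouse ages and sexes were not given in the sources used here.

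Total counts were between 16412779 and 31077588 per library, and a gene with 3 counts or fewer in a library is described as at or under the floor. The markers of the labelled cell type were low. Cdh5 had between 0 and 6 counts in every library, and 10 endothelial markers together reached 144 to 190.3 CPM (counts scaled to a common library size) in untreated libraries. In the same libraries 8 markers of haematopoietic progenitors summed to 9300 to 11511 CPM. The groups also differed in these markers. In CD45 RIT libraries 10 of 10 stromal markers were above the floor in both libraries and summed to 38769 to 58922 CPM, against 3199 to 8157 CPM in untreated libraries, while the progenitor markers summed to 17.8 to 52.9 CPM with Cd34 at 0 in both. Erythroid markers summed to 7647 to 14426 CPM in untreated libraries and to 131683 to 139461 CPM in IgG RIT libraries. They summed to 173670 CPM in TBI replicate 6 and to 24248 to 42973 CPM in the other TBI libraries. CD45 RIT replicates 1 and 2 were at 191156 and 47406 CPM. The part of these other cell types in the repair gene results was not tested, and in bulk RNA fewer cells of a type and less RNA per cell cannot be told apart.

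A break in both DNA strands is recognised by the Mre11a, Rad50 and Nbn complex and by the Ku proteins, and the kinases encoded by Atm, Atr and Prkdc then mark the surrounding chromatin through the histone variant H2AX. Dividing cells can copy the lost sequence from a sister chromatid by homologous recombination, whereas end joining seals the ends at any stage of the cell cycle. The Fanconi proteins remove crosslinks between strands and protect stalled replication forks, and their loss in patients leads to marrow failure. Many of these genes are transcribed most in cells that replicate DNA.

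The members spanned a wide range of level in untreated cells. Per kilobase of gene length, H2afx, which encodes H2AX, was highest at 273 ± 22.4 CPM per kb (SD, n = 4), followed by Parp1 at 45.5 ± 9.79 and Xrcc6 at 41.1 ± 11.3, which did not differ beyond their spread. Parp2 followed at 27.6 ± 1.87 CPM per kb and Msh6 at 24.5 ± 8.43. The lowest of the 48 were Atm at 1.02 ± 0.297, Lig4 at 0.887 ± 0.961 and Atr at 0.585 ± 0.101 CPM per kb. H2afx stood above every other member by far more than its spread, and most neighbours further down the order overlapped.

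Upstream sequences are shown for 4 members whose levels differed between groups. Polq was called higher after TBI and IgG RIT and lower in CD45 RIT libraries. Bard1 and Xrcc6 were also called lower in CD45 RIT libraries, and Fancc was the member called higher there. Each sequence is the 250 bases before the start of the RefSeq gene, 5′ to 3′ on the gene's strand, on build GRCm38.p6. For Xrcc6 and Fancc that RefSeq start lies inside the longer span given below for the counted gene. Capitals mark matches on either strand of an E2F word (TTTGGCGC, TTTCCCGC, TTTGCCGC or TTTCGCGC), of the CHR word TTTGAA or of the CCAAT word, which occur upstream of many genes of the cell cycle. No 2 matches overlap in these sequences.
Polq (chr16:37011536-37011785, plus strand): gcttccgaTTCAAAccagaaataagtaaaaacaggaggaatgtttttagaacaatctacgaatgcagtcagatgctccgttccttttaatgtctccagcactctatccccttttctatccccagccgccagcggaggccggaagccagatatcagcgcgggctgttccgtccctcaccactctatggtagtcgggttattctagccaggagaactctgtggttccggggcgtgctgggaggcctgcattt
Bard1 (chr1:71102973-71103222, minus strand): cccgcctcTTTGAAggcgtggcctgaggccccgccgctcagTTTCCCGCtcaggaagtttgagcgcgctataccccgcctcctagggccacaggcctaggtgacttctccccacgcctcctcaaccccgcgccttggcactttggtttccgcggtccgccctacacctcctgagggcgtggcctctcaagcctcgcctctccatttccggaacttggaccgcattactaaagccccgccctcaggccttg
Xrcc6 (chr15:82016119-82016368, plus strand): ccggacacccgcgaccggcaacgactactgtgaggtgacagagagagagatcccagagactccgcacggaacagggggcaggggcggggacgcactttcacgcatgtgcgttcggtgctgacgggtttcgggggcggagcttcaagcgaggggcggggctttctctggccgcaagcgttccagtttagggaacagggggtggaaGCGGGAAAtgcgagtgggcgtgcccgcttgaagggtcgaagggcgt
Fancc (chr13:63431746-63431995, minus strand): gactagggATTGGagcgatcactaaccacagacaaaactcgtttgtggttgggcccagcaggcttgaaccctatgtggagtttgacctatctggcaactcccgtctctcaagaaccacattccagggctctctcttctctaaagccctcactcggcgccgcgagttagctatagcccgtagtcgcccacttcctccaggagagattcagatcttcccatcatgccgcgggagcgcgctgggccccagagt
Over the 300 bases around the start (250 before and 50 after), 38 of the 48 members had RefSeq windows, 42 in number. An E2F word lay in 8 of 42 member windows (19.0%), those of 7 genes, which were Chek2, Mdc1, Brca2, Bard1, Rad51c, Xrcc6 and Msh6, against 2.26% of all 32851 windows. The NRF1 word GCGCATGC, searched on both strands, lay in 19.0% of member windows and 2.71% of all windows. CCAAT lay in 52.4% against 37.4%, and CHR in 11.9% against 17.9%. An E2F match lay in 2 of the upstream sequences, those of Bard1 and Xrcc6. Both genes were called lower in CD45 RIT than in untreated libraries, and so was Polq, which had no E2F match. The other genes with an E2F word in a window (Chek2, Mdc1, Brca2, Rad51c and Msh6) were not called in that contrast. The printed sequences were picked by the levels of their genes, so they cannot show a link between match and call. After IgG RIT the log2 fold changes of Bard1 and Xrcc6 were 1.73 and -0.70, and neither was called there or after TBI. A match is a description of the letters and not a site of binding.

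**Figure D1:**
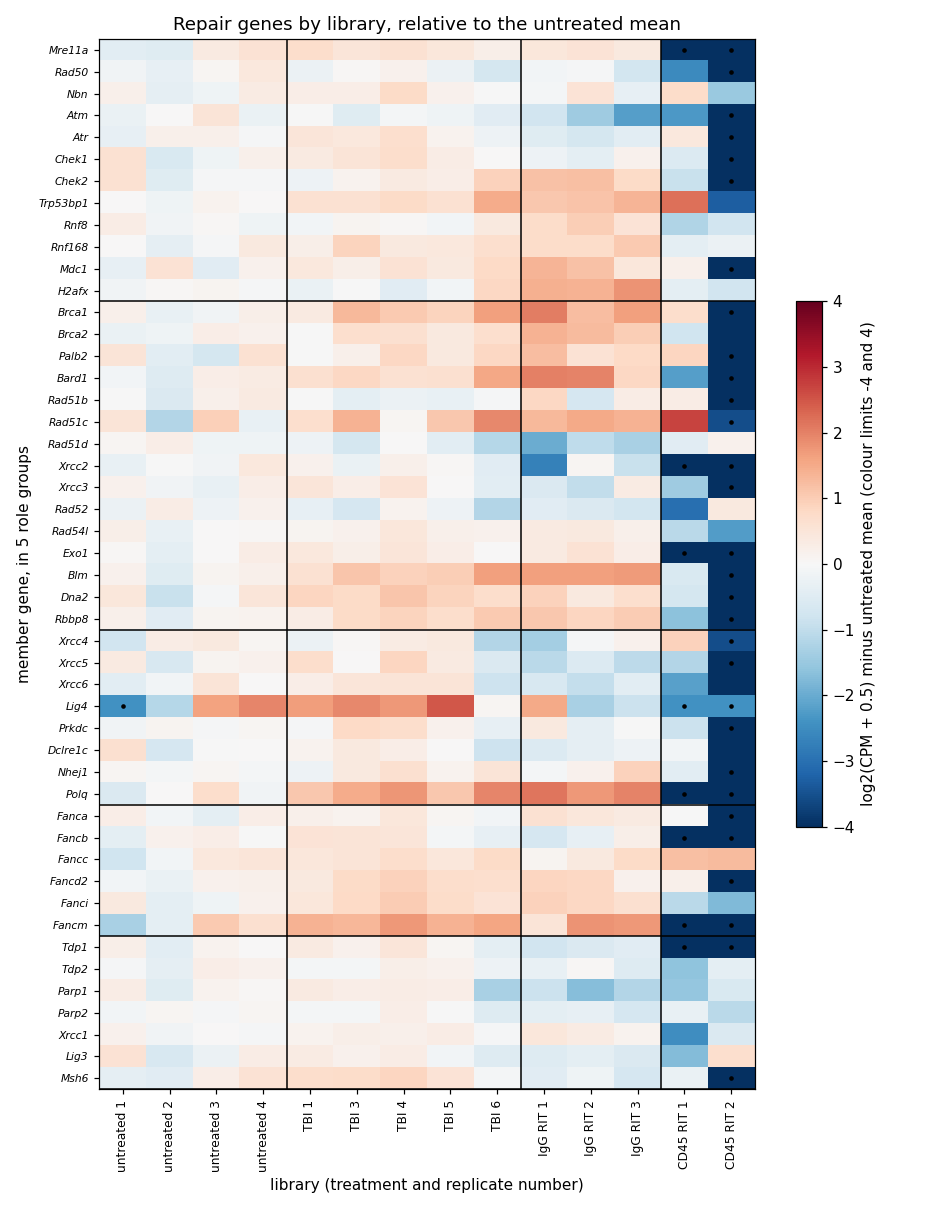
Level of each of the 48 members (rows, in 5 role groups) in each of 14 libraries (columns), as log2(CPM + 0.5) minus the untreated mean, with colours limited at -4 and 4 and a dot where the count was 3 or fewer. CD45 RIT replicate 2 has 30 dots and replicate 1 has 8, while the other 12 libraries together have 1 dot.

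Against untreated cells, few members changed after TBI, a mixed set changed after IgG RIT, and a larger set fell in CD45 RIT libraries. After TBI, 1 of 48 members was called higher (background 0.921% of all tested genes) and 0 lower (background 3.38%) at an adjusted p under 0.05 in edgeR's quasi-likelihood test, with 4 members at an unadjusted p under 0.05. Over all tested genes, 3925 of 21509 were under that unadjusted threshold. DESeq2 called 4 higher and 0 lower, beside 4.55% and 7.01% of all tested genes. The members' median log2 fold change was 0.31 against -0.16 over all tested genes. Of the 48 members 38 were above 0, against 8703 of 21509 tested genes. After IgG RIT, 4 members were called higher (background 5.75%) and 2 lower (background 10.7%), with a median of 0.31 against -0.42. In CD45 RIT libraries, 1 member was called higher (background 14.5%) and 16 lower (background 18.6%), with a median of -1.39 against -0.37. The members' shares of calls after TBI (2.08% higher and 0% lower) and after IgG RIT (8.33% and 4.17%) were near the background, whereas the share of lower calls in CD45 RIT libraries was 33.3%. The median there was also -1.39 with the 8 members at the floor set to their bounds. All 8 bounds lie below the median, so this step could not move it. These comparisons share the untreated libraries. Another scaling of the libraries (median of ratios) moved the median of all genes by 0.12, 0.21 and 0.24 in the 3 contrasts, and no scaling moved it by -0.12, -0.52 and -0.71. For IgG RIT the split of higher and lower calls was 5 and 1 with median-of-ratios factors and 2 and 4 without scaling. Of all tested genes, 7.2% and 8.21% were called with these factors, and 3.42% and 20.1% without scaling. In CD45 RIT libraries the split was 1 and 14 (17.9% and 16% of all tested genes), and 0 and 23 (8.35% and 28.4%).

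**Figure D2:**
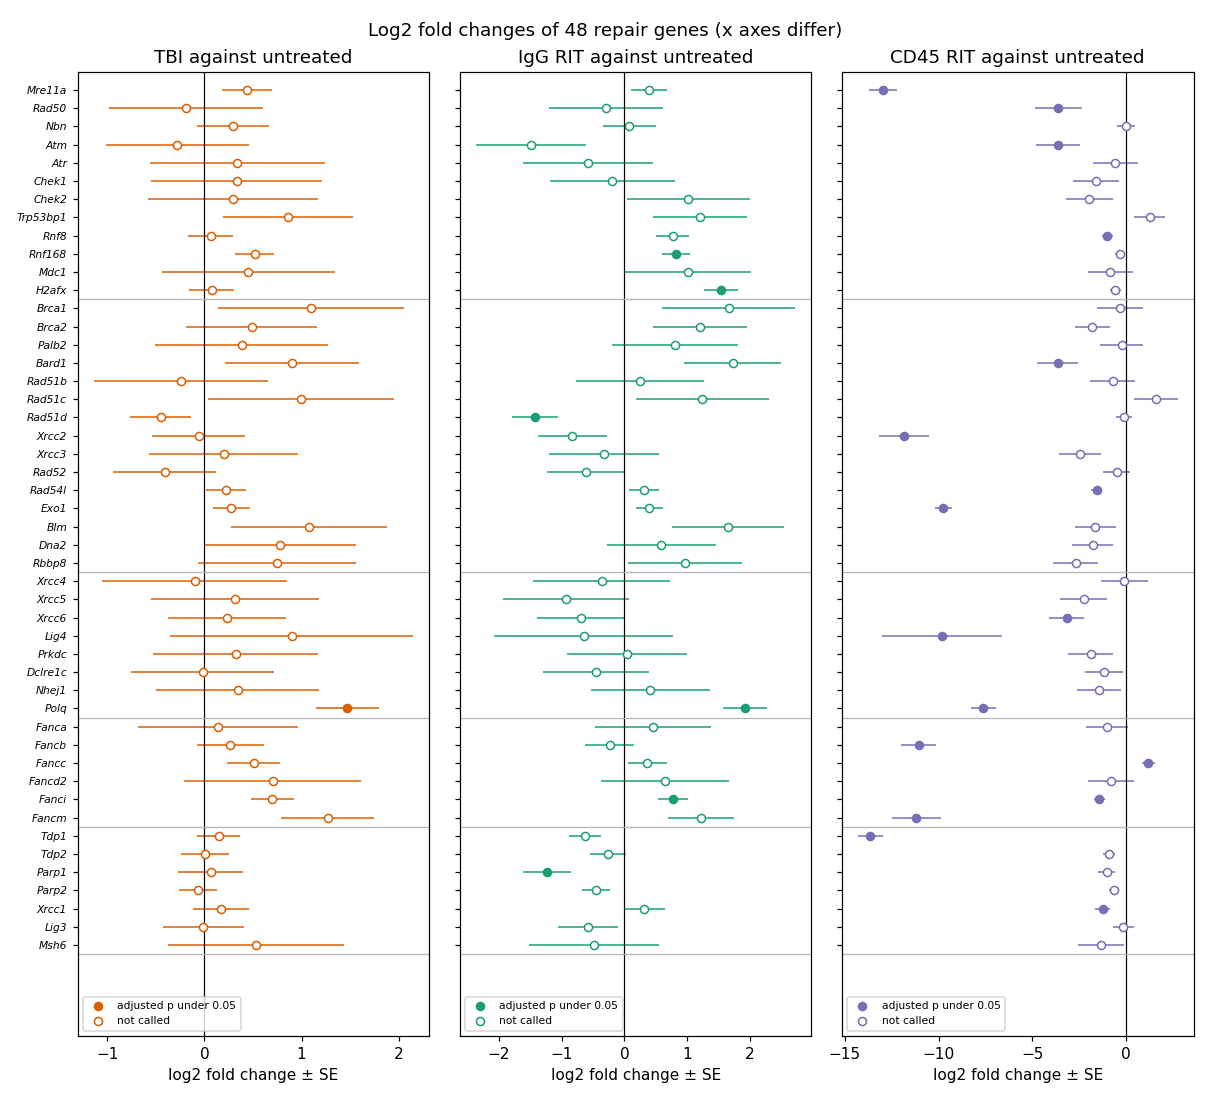
Log2 fold change against untreated with its standard error (x axes differ between panels) for 48 members in 5 role groups, separately for TBI, IgG RIT and CD45 RIT. Filled points passed an adjusted p of 0.05: 1 after TBI, 6 after IgG RIT and 17 in CD45 RIT libraries, 16 of which lie left of 0.

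The sensors and chromatin signalling genes were the role in which H2afx and Rnf168 rose after IgG RIT and 4 of 12 members (33.3%, background 18.6%) fell in CD45 RIT libraries. H2afx (ENSMUSG00000049932.3, chr9:44334694-44336077 on GRCm38) encodes the histone variant that ATM and its relatives phosphorylate at breaks. Its levels were 339.5, 393, 411 and 368 CPM in untreated libraries, 315, 374, 278, 353 and 671 CPM after TBI, 1006, 984 and 1314 CPM after IgG RIT, and 285 and 223 CPM in CD45 RIT libraries. The 3 IgG RIT libraries lay above every other library, and the fifth TBI library, replicate 6, lay above all untreated libraries. H2afx rose after IgG RIT by a log2 fold change of 1.54 (SE 0.27, edgeR adjusted p = 0.00398), and was called without any 1 of the 7 libraries compared. After TBI its fold change was 0.08 (SE 0.23, adjusted p = 0.931). Between IgG RIT and TBI it was the member called higher, of 48 (background 0.0697% higher and 0.172% lower, with 0 members lower), at 1.47 (SE 0.25, adjusted p = 0.0381). That call was lost when any TBI library other than replicate 6 or any IgG RIT library was left out (adjusted p between 0.083 and 0.123). In counts it shared 10.2% of its exonic bases with the predicted gene Gm44335.

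Rnf168 (chr16:32277459-32301434), a ubiquitin ligase that marks H2A near breaks, had 44.5, 34.5, 42.5 and 57.5 CPM in untreated libraries. It had 51.9, 81.6, 58.2, 58.6 and 69.8 CPM after TBI, 73.5, 72.8 and 91.1 CPM after IgG RIT and 33.2 and 37.3 CPM in CD45 RIT libraries. The IgG RIT libraries did not overlap the untreated ones, and the TBI libraries overlapped both. Rnf168 rose after IgG RIT by 0.82 (SE 0.23, edgeR adjusted p = 0.0286), but the call was lost without any 1 of the libraries other than untreated replicate 4 (adjusted p between 0.0597 and 0.101). Its partner Rnf8, the ligase that acts before it, was at 0.77 (SE 0.26, adjusted p = 0.0625) after IgG RIT and fell in CD45 RIT libraries by 1.00 (SE 0.31, adjusted p = 0.0283). The Rnf8 call there was lost without untreated replicate 1 (adjusted p = 0.0617), untreated replicate 3 (0.0539) or CD45 RIT replicate 1 (0.0578).

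The subunits of the break-binding complex differed from each other in CD45 RIT libraries. Mre11a (chr9:14784654-14837123), its nuclease, had 27.96, 26.7, 48.7 and 56.9 CPM in untreated libraries, 62.3, 53.6, 58.6, 51.9 and 45.2 CPM after TBI and 52.4, 55.1 and 50.3 CPM after IgG RIT. It had 0 counts in both CD45 RIT libraries, at least 219-fold lower than untreated (edgeR adjusted p = 2.22e-06). Rad50, the complex's ATPase, was at 12.9 and 0 CPM in CD45 RIT libraries against 62.4 to 104 CPM untreated and fell by 3.63 (SE 1.25, adjusted p = 0.042). Its call was lost without any 1 of the untreated libraries (adjusted p between 0.0577 and 0.0716). Nbn, the third subunit, was at 83.3 and 17.8 CPM in CD45 RIT replicates 1 and 2, above and below the 39.2 to 62.7 CPM untreated. It was not called (log2 fold change -0.02, SE 0.48, edgeR adjusted p = 0.984). That value joins opposite moves, 0.66 with replicate 1 alone and -1.53 with replicate 2 alone.

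The kinase genes Atm and Atr were low throughout, and of these Atm was called lower in CD45 RIT libraries. Atm, the first responder kinase to breaks, had 8.48, 10.3, 15.0 and 8.48 CPM in untreated libraries, 10.1, 7.22, 9.77, 8.97 and 7.46 CPM after TBI, 5.90, 3.53 and 1.84 CPM after IgG RIT, and 1.71 and 0 CPM in CD45 RIT libraries. Its fall in CD45 RIT libraries was 3.64 on the log2 scale (SE 1.17, edgeR adjusted p = 0.032), and was lost without untreated replicate 2 (adjusted p = 0.0519) or replicate 3 (0.0588). The IgG RIT libraries lay below every untreated and TBI library, yet the change was not called (log2 fold change -1.49, SE 0.88, adjusted p = 0.259). Over all tested genes, 5900 of 21509 lay wholly below the untreated libraries after IgG RIT. Atr, the kinase of single-stranded DNA, had 10.7, 15.7, 15.7 and 13.3 CPM in untreated libraries, 19.3, 18.7, 22.3, 15.3 and 11.8 CPM after TBI, 9.61, 8.11 and 9.98 CPM after IgG RIT, and 18.6 and 0 CPM in CD45 RIT libraries. CD45 RIT replicate 1 lay among the TBI libraries and replicate 2 had none, and no contrast called Atr.

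Chek1, the kinase downstream of Atr, had 41.9, 17.7, 24.3 and 31.7 CPM in untreated libraries, 35.7, 39.3, 45.0, 34.1 and 27.7 CPM after TBI, 23.7, 20.8 and 31.3 CPM after IgG RIT, and 18.8 and 0 CPM in CD45 RIT libraries. Chek2, the kinase downstream of Atm, had 83.6, 39.5, 53.0 and 53.0 CPM in untreated libraries, 47.9, 61.5, 70.6, 66.8 and 104 CPM after TBI, 125, 129 and 95.1 CPM after IgG RIT, and 29.5 and 0 CPM in CD45 RIT libraries. For Chek2 the IgG RIT libraries lay above all untreated ones, as for 3365 of 21509 tested genes. Neither kinase was called in any of the 6 contrasts. Of the remaining members of this role, Mdc1, which reads phosphorylated H2AX, and Trp53bp1, which encodes the end-protecting factor 53BP1, were at 1.01 (SE 1.00) and 1.21 (SE 0.74) after IgG RIT, with adjusted p of 0.518 and 0.28.

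**Figure D3:**
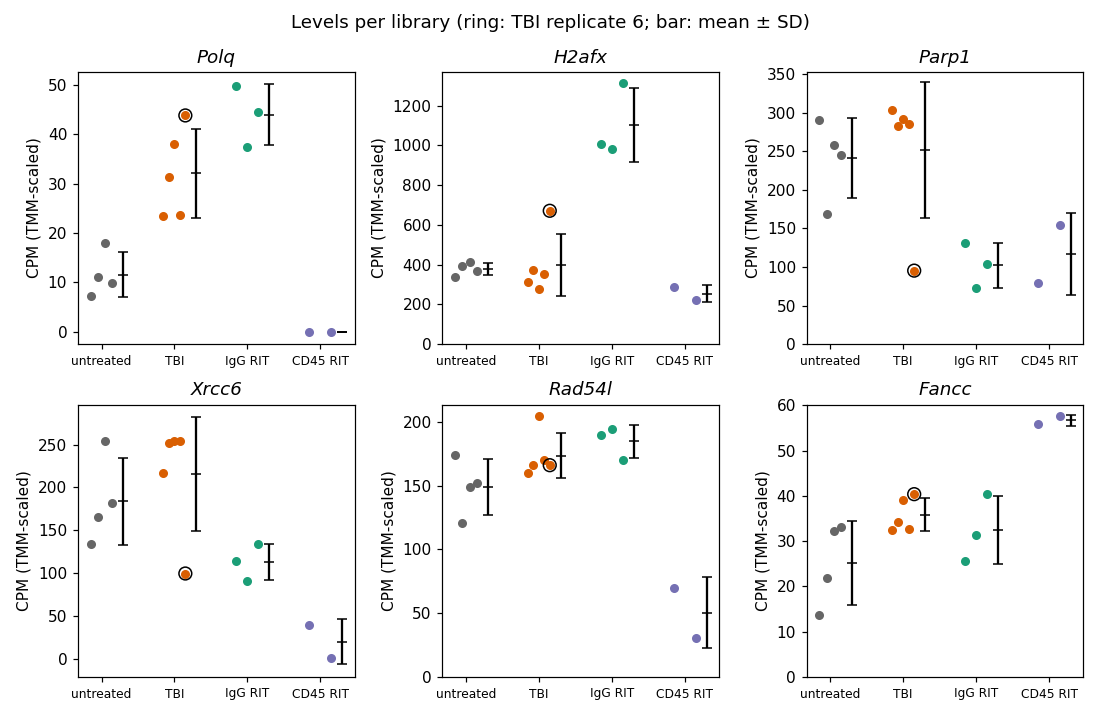
CPM on the TMM-scaled library size of 6 members in each library, by group, with the mean ± SD beside each group and a ring around TBI replicate 6. For H2afx the IgG RIT libraries are at 984 CPM or above and all others at 671 CPM or below, and for Parp1 and Xrcc6 the ringed library lies at 95.3 and 99.6 CPM, below the other 4 TBI libraries.

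Homologous recombination held 15 members, of which 0 were called after TBI, 1 fell after IgG RIT (6.67%, background 10.7%) and 4 fell in CD45 RIT libraries (26.7%, background 18.6%). Rad51d (chr11:82876434-82890614), which encodes a recombination mediator, had 28.6, 32.3, 24.1 and 24.0001 CPM in untreated libraries, 23.7, 16.2, 27.4, 20.1 and 12.1 CPM after TBI, 6.48, 13.2 and 10.7 CPM after IgG RIT, and 19.5 and 30.6 CPM in CD45 RIT libraries. Every IgG RIT library was below every untreated and CD45 RIT library. Rad51d fell after IgG RIT by 1.43 (SE 0.37, edgeR adjusted p = 0.0235), a call lost without untreated replicate 2 (adjusted p = 0.0536), IgG RIT replicate 1 (0.0935) or IgG RIT replicate 3 (0.0591). It was also the member called higher in CD45 RIT than in IgG RIT libraries, of 48 (background 20.2%), at 1.31 (SE 0.42, adjusted p = 0.0289), and this was lost without IgG RIT replicate 1 (0.0912), IgG RIT replicate 3 (0.0592) or CD45 RIT replicate 2 (0.215).

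The members that fell in CD45 RIT libraries served several steps of recombination. Xrcc2 (chr5:25689812-25705825), which encodes another recombination mediator, had 14.8, 18.2, 16.6 and 24.7 CPM in untreated libraries, 20.8, 15.2, 20.9, 18.8 and 13.3 CPM after TBI and 2.37, 19.3 and 9.67 CPM after IgG RIT. It had 0 counts in both CD45 RIT libraries, at least 102-fold lower than untreated (edgeR adjusted p = 8.11e-05). The resection nuclease gene Exo1 had 1 count in each CD45 RIT library against 38.1 to 61.7 CPM untreated, a ratio of 939 with a counting interval of 260.0 to 7756. Bard1, the partner of Brca1, was at 1.28 and 0 CPM against 5.26 to 9.94 CPM untreated and fell by 3.66 (SE 1.10, adjusted p = 0.0233). Rad54l, a DNA translocase of recombination, was detected in both libraries at 69.9 and 30.8 CPM against 121 to 174 CPM untreated, a fall of 1.56 (SE 0.29, adjusted p = 0.00163).

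After TBI and IgG RIT most recombination genes lay above 0 without passing the test. Brca1, which steers breaks into recombination, was at 1.09 (SE 0.96) after TBI and 1.67 (SE 1.06) after IgG RIT, with adjusted p of 0.638 and 0.295. Brca2, a recombination mediator, was at 0.49 (SE 0.67) and 1.21 (SE 0.76), and Blm, the helicase that dissolves recombination intermediates, at 1.08 (SE 0.81) and 1.65 (SE 0.90). In these genes the IgG RIT libraries lay above all untreated libraries, at 90.1 to 160.0 CPM for Brca1, 84.0 to 110.1 CPM for Brca2 and 113 to 119 CPM for Blm, against at most 45.5, 50.5 and 41.7 CPM. Over all tested genes, the IgG RIT libraries lay wholly above the untreated ones in 3365 of 21509 and wholly below in 5900. The fit has 1 estimate of spread per gene over all groups, including the 2 CD45 RIT libraries at 62.3 and 0 CPM of Brca1. The effect of those 2 libraries on the results of the other groups was not tested. Palb2, which joins Brca1 to Brca2, the resection factors Rbbp8 and Dna2, the recombination mediator genes Rad51b, Rad51c and Xrcc3, and the annealing protein gene Rad52 were called in neither contrast, with log2 fold changes of -0.41 to 1.00 after TBI and -0.62 to 1.25 after IgG RIT.

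End joining held the only member called after TBI. Polq (chr16:37011786-37095417) encodes DNA polymerase theta, which joins ends at short repeats, and its upstream sequence is printed above. It had 7.20, 11.1, 17.9 and 9.94 CPM in untreated libraries, 23.4, 31.3, 38.0, 23.7 and 43.8 CPM after TBI, 49.8, 37.4 and 44.4 CPM after IgG RIT, and 1 count in each CD45 RIT library. The TBI and IgG RIT libraries overlapped each other and lay above all untreated libraries, and both CD45 RIT libraries lay below them. Polq rose by 1.47 after TBI (SE 0.32, edgeR adjusted p = 0.0227) and by 1.93 after IgG RIT (SE 0.35, adjusted p = 0.00502). It was 215-fold lower in CD45 RIT than in untreated libraries by ratio, with a counting interval of 59.4 to 1773. The TBI call was lost without untreated replicate 1 (adjusted p = 0.0671), untreated replicate 2 (0.0756), untreated replicate 4 (0.0717), TBI replicate 3 (0.0512) or TBI replicate 4 (0.0554), with fold changes between 1.30 and 1.77, while the IgG RIT call was kept without each library in turn.

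None of the classical end joining genes was called after TBI or IgG RIT, and Xrcc6 and Lig4 were called lower in CD45 RIT libraries, as Polq was. Xrcc6 (chr15:81987835-82040085), which encodes Ku70, had 135, 165, 254 and 181 CPM in untreated libraries, 217, 252, 255, 254 and 99.6 CPM after TBI, 114, 91.4 and 134 CPM after IgG RIT, and 39.2 and 1.39 CPM in CD45 RIT libraries. All IgG RIT and CD45 RIT libraries lay below the lowest untreated library, and TBI replicate 6 lay apart from the other TBI libraries. Xrcc6 fell in CD45 RIT libraries by 3.18 (SE 0.93, edgeR adjusted p = 0.0208) and was at -0.70 after IgG RIT (SE 0.70, adjusted p = 0.524). Xrcc5, which encodes its partner Ku80, had 41.2, 20.3, 34.2 and 36.5 CPM in untreated libraries, 52.9, 32.1, 58.2, 41.4 and 21.3 CPM after TBI, 14.9, 21.7 and 15.2 CPM after IgG RIT, and 13.8 and 0 CPM in CD45 RIT libraries. It was not called in any contrast, with a log2 fold change of -2.26 in CD45 RIT libraries (SE 1.25, adjusted p = 0.174).

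Prkdc, which encodes the kinase that binds Ku on DNA ends, had 19.4, 22.9, 20.8 and 22.4 CPM in untreated libraries, 20.8, 37.1, 34.7, 24.01 and 17.1 CPM after TBI, 28.2, 16.5 and 21.2 CPM after IgG RIT, and 11.6 and 0 CPM in CD45 RIT libraries. The first 3 groups overlapped, and no contrast called it. Lig4, the ligase of this pathway, was called lower in CD45 RIT libraries (edgeR adjusted p = 0.0349) at 0 counts in both, at least 25.3-fold lower. Untreated replicate 1 also had 0 counts of Lig4, so the groups overlapped, and the call was lost without untreated replicate 3 (adjusted p = 0.0553), untreated replicate 4 (0.0564), CD45 RIT replicate 1 (0.0808) or CD45 RIT replicate 2 (0.114). Xrcc4 and Nhej1, whose products work with Lig4, and Dclre1c, which encodes the end-trimming nuclease Artemis, were not called in the 3 contrasts against untreated, with values of -0.10 to 0.34 after TBI and -1.46 to -0.10 in CD45 RIT libraries.

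The Fanconi role held 6 members, of which 1 rose after IgG RIT (background 5.75%), and 1 rose (background 14.5%) and 3 fell (background 18.6%) in CD45 RIT libraries. With 6 genes, 1 call is 16.7% of the role. Fancc (chr13:63285043-63497278), a subunit of the core ubiquitin ligase complex, had 13.6, 21.9, 32.3 and 33.1 CPM in untreated libraries, 32.5, 34.3, 39.2, 32.8 and 40.4 CPM after TBI, 25.6, 31.4 and 40.5 CPM after IgG RIT, and 55.8 and 57.6 CPM in CD45 RIT libraries. Both CD45 RIT libraries lay above all others. Fancc rose there by 1.17 (SE 0.34, edgeR adjusted p = 0.02), and was called with either CD45 RIT library alone (1.12 and 1.18), but not without scaling factors (0.48, adjusted p = 0.286). Of its exonic bases, 18.6% are shared with 2 genes on the opposite strand, and reads of these could not be told apart from its own.

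Fancm (chr12:65075603-65132058), the translocase that anchors the core complex to DNA, had 3.69, 7.36, 20.7 and 15.4 CPM in untreated libraries, 26.5, 25.4, 33.9, 26.5 and 30.1 CPM after TBI, 14.1, 35.0 and 33.6 CPM after IgG RIT, and 0 counts in both CD45 RIT libraries. Every TBI library lay above every untreated library, but edgeR did not call the change (1.27, SE 0.48, adjusted p = 0.175) whereas DESeq2 did (1.39, adjusted p = 0.0367). In CD45 RIT libraries Fancm was at least 64.5-fold lower than untreated (edgeR adjusted p = 0.000107), and Fancb, another core subunit, at least 59.0-fold lower (adjusted p = 1.29e-05).

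Fanci and Fancd2 form the clamp that the core complex ubiquitinates. Fanci was at 36.4 to 62.0 CPM untreated, 66.0 to 96.7 CPM after TBI, 75.1 to 90.2 CPM after IgG RIT, and 22.2 and 13.7 CPM in CD45 RIT libraries. All TBI and IgG RIT libraries lay above the untreated libraries and both CD45 RIT libraries below them. It rose after IgG RIT by 0.78 (SE 0.24, edgeR adjusted p = 0.0467), a call lost without any 1 of the 7 libraries other than untreated replicate 1 (adjusted p between 0.0702 and 0.138), was at 0.70 after TBI (SE 0.22, adjusted p = 0.0945), and fell in CD45 RIT libraries by 1.44 (SE 0.30, adjusted p = 0.00328). Fancd2 was at 0.70 after TBI (SE 0.91) and 0.65 after IgG RIT (SE 1.02) and was not called, and the core subunit gene Fanca was at 0.14 (SE 0.82) and 0.45 (SE 0.93).

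Genes for single-strand breaks, trapped topoisomerases and mismatches had log2 fold changes below 0 after IgG RIT in 6 of 7 members. Of these, Parp1 passed the test. Over all tested genes 13609 of 21509 were below 0, with a median of -0.42 against -0.49 for this role. Parp1 (chr1:180568924-180601254) encodes the poly(ADP-ribose) polymerase that senses nicks. It had 291, 169, 258 and 245 CPM in untreated libraries, 303, 282, 292, 286 and 95.3 CPM after TBI, 131, 72.3 and 104 CPM after IgG RIT, and 79.8 and 155 CPM in CD45 RIT libraries. TBI replicate 6 lay within the IgG RIT range and far below the other TBI libraries, and all 5 RIT libraries lay below all untreated libraries. Parp1 fell after IgG RIT by 1.24 (SE 0.39, edgeR adjusted p = 0.0486), a call lost without any 1 of the 7 libraries (adjusted p between 0.0516 and 0.164). In CD45 RIT libraries it was at -1.04 (SE 0.45, adjusted p = 0.0917).

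Tdp1 (chr12:99884517-99955219) encodes the enzyme that frees topoisomerase I from DNA, and had the largest fitted fall of the 48 members in CD45 RIT libraries. It had 75.1, 47.3, 70.1 and 63.8 CPM in untreated libraries, 80.7, 71.4, 88.1, 66.1 and 48.1 CPM after TBI, 36.6, 41.7 and 46.3 CPM after IgG RIT, and 0 counts in both CD45 RIT libraries, at least 350.5-fold lower than untreated (edgeR adjusted p = 9.87e-07). Its counterpart for topoisomerase II, Tdp2, was detected in both, at 21.8 and 51.1 CPM against 52.4 to 81.0 CPM untreated (-0.91, SE 0.33, adjusted p = 0.0536). Xrcc1, the scaffold of single-strand break repair, fell to 13.95 and 54.4 CPM from 72.8 to 91.7 CPM (-1.25, SE 0.40, adjusted p = 0.0304), a call lost without untreated replicate 1 (0.0551) or replicate 3 (0.0514). Its ligase Lig3, the second nick sensor Parp2 and the mismatch sensor Msh6 were not called in the 3 contrasts against untreated.

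**Figure D4:**
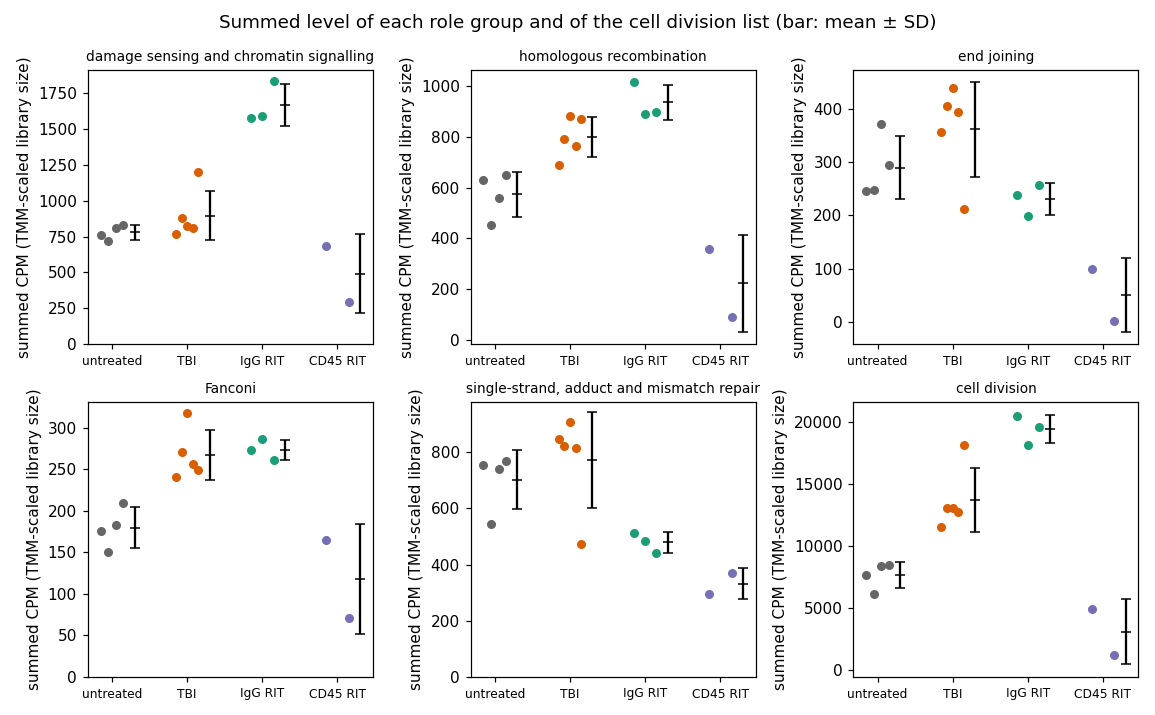
Summed CPM on the TMM-scaled library size for each of the 5 roles and for a list of 25 cell division genes, by library, with the mean ± SD beside each group. End joining has a mean of 289.97 CPM in untreated libraries and lies at 99.99 and 1.63 CPM in the 2 CD45 RIT libraries, and cell division has a mean of 7655 CPM and lies at 4941 and 1219 CPM.

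The sums over roles, on the TMM-scaled library sizes used for single genes, overlapped between untreated and IgG RIT libraries for end joining and not for damage sensing. End joining genes summed to 246 to 371 CPM in untreated libraries, 357 to 439.7 CPM in 4 TBI libraries and 211 CPM in TBI replicate 6, and 199 to 258 CPM after IgG RIT. On total counts these end joining sums were 301 to 449 CPM untreated and 174 to 215 CPM after IgG RIT, and no longer overlapped. Damage sensing genes summed to 716 to 831 CPM in untreated libraries, 767 to 877 CPM in 4 TBI libraries and 1198 CPM in TBI replicate 6, and 1574 to 1833 CPM after IgG RIT, and H2afx was the largest part. Cell division genes, such as Mki67 and Top2a, moved with the groups: their sum was 6141 to 8468 CPM untreated, 11498 to 13077 CPM in 4 TBI libraries and 18150 CPM in TBI replicate 6, 18158 to 20433 CPM after IgG RIT, and 4941 and 1219 CPM in CD45 RIT libraries. Of these 25 genes, 6 were called higher after TBI (24%, background 0.921%), 13 higher after IgG RIT (52%, background 5.75%) and 7 lower in CD45 RIT libraries (28%, background 18.6%), with none called in the other direction in these contrasts. The part of cell division in the repair gene changes was not tested.

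**Figure D5:**
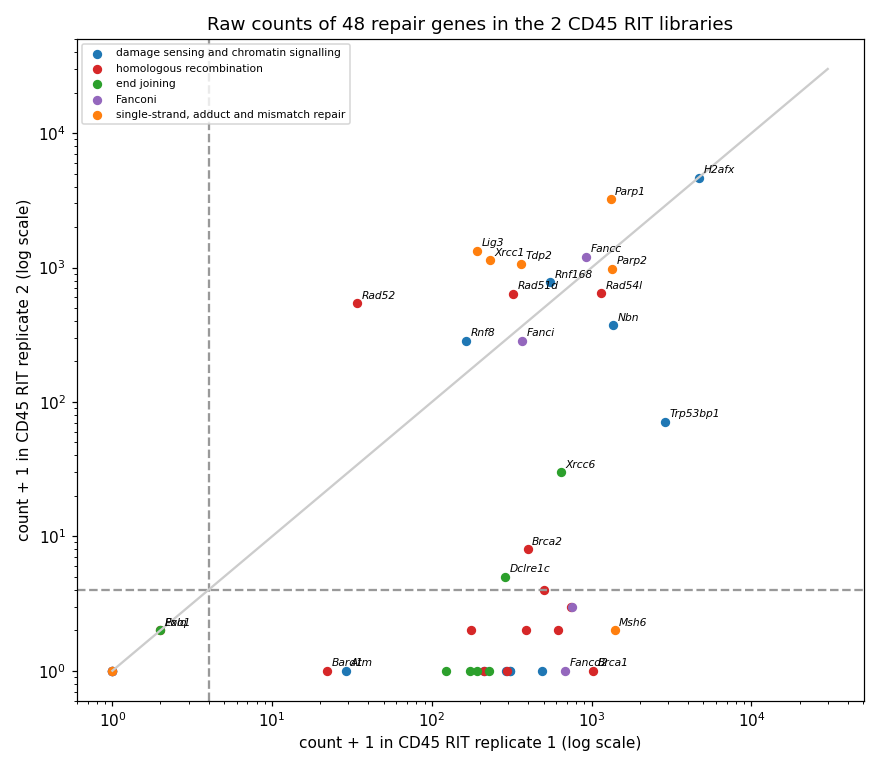
Raw counts plus 1 of the 48 members in CD45 RIT replicate 1 (x axis) and replicate 2 (y axis), both on log scales, coloured by role, with dashed lines at the floor of 3 counts and a line of equal counts. In 22 members only replicate 1 is above the floor, in 18 both are, in 8 neither is, and in 0 only replicate 2 is.

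The 2 CD45 RIT libraries differed from each other more than any other pair of replicates, with a correlation of log2 CPM of 0.673 against 0.906 or more in the other groups. Of the 48 members, 8 were at or under the floor in both (Mre11a, Xrcc2, Exo1, Lig4, Polq, Fancb, Fancm and Tdp1), 22 only in replicate 2, and 0 only in replicate 1, with 18 above it in both. Over all tested genes these shares were 19.7%, 20.0%, 4.64% and 55.6%. In replicate 2, 62.5% of members were at or under the floor, against 39.7% of tested genes, and in replicate 1, 16.7% against 24.4%. The missing members of replicate 2 included genes that were well above the floor in replicate 1, such as Brca1 at 62.3 CPM and Msh6 at 84.7 CPM. Erythroid markers summed to 191156 CPM in replicate 1 and 47406 CPM in replicate 2, and their part in this was not tested.

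For some members the 2 libraries went in different directions. Trp53bp1 was at 176 and 3.37 CPM against 32.9 to 41.5 CPM untreated, so that its log2 fold change was 2.19 with replicate 1 alone and -3.49 with replicate 2 alone. Rad51c was at 45.1 and 0.0962 CPM and gave 2.51 and -6.25. With replicate 1 alone 3 members were called higher and 21 lower (14.1% and 19.4% of all tested genes), and with replicate 2 alone 1 and 38 (18.8% and 34% of all tested genes). Of the 16 lower calls with both, 14 were called with either library alone, and Rnf8 and Lig4 were not.

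Several members share exonic bases with other genes. In the GENCODE M21 annotation, 21 of the 48 members share exonic bases with another gene, 19 of these with a gene on the opposite strand, and 8 share over 10% of their exonic bases. Of the 18 members above the floor in CD45 RIT replicate 2, 7 share over 10% (Trp53bp1, Rnf8, H2afx, Rad54l, Fancc, Fanci and Lig3), against 1 of the 30 at or under it (Fanca). The same split over all tested genes was not counted, so it is not known whether it is particular to the members. The members and partners did not follow 1 pattern between the 2 libraries. Fanci had 364 and 285 counts in replicates 1 and 2 and its partner Polg 223 and 4418. Rad54l had 1148 and 640 counts and its partner Lrrc41 302 and 1660. Trp53bp1 had 2883 and 70 counts and its partner Tubgcp4 218 and 712, whereas Lig3 had 191 and 1328 and its partner Rffl 1707 and 713. Rnf8 had 162 and 283 counts beside 0 and 2 for Gm28043, and H2afx had 4680 and 4639 beside 956 and 1165 for Gm44335. The kit does not mark strand, so reads of such a member and of its partner cannot be told apart in the shared bases, and reads inside these bases were not counted here.

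The RIT groups were also compared with each other and with TBI. Between CD45 RIT and IgG RIT libraries, 1 member was called higher, which was Rad51d, and 18 lower (background 17.5%), with a median of -1.87 against -0.13 over all genes. The share of members called lower was 37.5%. In IgG RIT libraries the 3 members with the largest fitted difference had 50.3 to 55.1 CPM of Mre11a, 36.6 to 46.3 CPM of Tdp1 and 14.1 to 35.0 CPM of Fancm, and all 3 had 0 counts in both CD45 RIT libraries. The lower bounds of these differences were 288-fold, 227-fold and 151-fold, with edgeR adjusted p of 1.64e-06, 8.71e-07 and 4.97e-05. H2afx was lower by 2.12 on the log2 scale in CD45 RIT than in IgG RIT libraries (log2 fold change -2.12, SE 0.35, adjusted p = 0.000595), and Rnf168 and Rnf8 were also called (-1.17 and -1.77). The calls of Brca2, Rbbp8 and Xrcc6 were lost without any 1 of the IgG RIT libraries (adjusted p between 0.0551 and 0.0894), and that of Lig4 without IgG RIT replicate 1 (0.0952) or either CD45 RIT library (0.1 and 0.126). With CD45 RIT replicate 2 alone 2 members were called higher and 40 lower, beside 23.6% and 32.6% of all tested genes.

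Between CD45 RIT and TBI libraries, 0 members were called higher (background 19.6%), and 19 lower (background 19.0%), with a median of -1.79 against -0.39. The share of members called lower was 39.6%. At an unadjusted p under 0.05 there were 25 of 48 members, against 10516 of 21509 tested genes. DESeq2 called 1 higher, which was Fancc, and 24 lower, beside 22.1% and 24.2% of all tested genes. Without CD45 RIT replicate 1, 0 members were called higher and 39 lower, beside 22.1% and 33.8% of all tested genes. Without replicate 2 there were 1 and 28, beside 17.6% and 20.6%.

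TBI replicate 6 stood apart from the other TBI libraries in many members. Its erythroid markers summed to 173670 CPM against 24248 to 42973 CPM in the others, and their part in this was not tested. Its library carries the number 10 in the labels, and the RIT libraries carry 11 to 16, whereas the untreated and other TBI libraries carry 1 to 9. It lay below all other TBI libraries for 26 of 48 members and above them for 13, against 41.2% and 24.9% of all tested genes. Those above were Chek2, Trp53bp1, Rnf8, Mdc1, H2afx, Brca1, Brca2, Bard1, Rad51c, Blm, Rbbp8, Polq and Fancc. Without it, Tdp1 and Parp1 were lower after IgG RIT than after TBI (-0.88 and -1.51, edgeR adjusted p = 0.0332 and 0.00769), and H2afx was higher by 1.74 (adjusted p = 0.000761). With it, neither Tdp1 (-0.77, adjusted p = 0.144) nor Parp1 (-1.30, adjusted p = 0.116) was called. In a fit with a term for library numbers of 10 and above, chosen after seeing the data, 0 members were called after IgG RIT. That fit called 0% of all tested genes higher and 0.0883% lower, so few genes of any kind were called. In it the log2 fold changes of H2afx and Polq were 0.52 and 1.34. Library number and RIT treatment cannot be told apart beyond this 1 library.

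Among 60 other genes of the same pathways, listed by function, 0 were called after TBI (background 0.921% higher and 3.38% lower). At an unadjusted p under 0.05 there were 4 of these 60, against 3925 of 21509 tested genes. After IgG RIT 4 rose (6.67%, background 5.75%) and 2 fell (3.33%, background 10.7%), and in CD45 RIT libraries 2 rose (3.33%, background 14.5%) and 14 fell (23.3%, background 18.6%). The rises after IgG RIT included those of Fancl, the ligase subunit of the Fanconi core, at 1.35 (SE 0.25, edgeR adjusted p = 0.00515) and Rpa1, which coats single-stranded DNA, at 0.75 (SE 0.23, adjusted p = 0.0407). The abasic site nuclease gene Apex1 fell by 2.15 (SE 0.45, adjusted p = 0.00889), from 141 to 211 CPM untreated to 32.9 to 44.8 CPM, and the checkpoint clamp gene Rad1 by 1.13 (SE 0.33, adjusted p = 0.0357). In CD45 RIT libraries Fancf and Fan1 had 0 counts in both and Rmi2 had 1 and 2 counts, all called lower. Atrip, the partner of Atr, was higher at 33.5 and 172 CPM against 22.0 to 36.6 CPM (1.89, SE 0.49, adjusted p = 0.0119), and the first of these lies within the untreated range. Sfr1, a recombination cofactor, was higher at 158 and 205 CPM against 93.0 to 113 CPM (0.76, SE 0.17, adjusted p = 0.00558). The list's median was 0.19 after TBI, -0.03 after IgG RIT and -1.29 in CD45 RIT libraries, beside 0.31, 0.31 and -1.39 for the 48 members.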

How the data were processed

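RNA sequencing libraries, 14 in all, were grouped by treatment label into untreated (4), TBI (5), IgG RIT (3) and CD45 RIT (2). Per the labels' protocols, RNA was extracted with a Qiagen micro kit, amplified with the SMART-Seq v4 kit, which does not mark strand or molecules, and made into libraries with Nextera XT. The authors deposited 1 table of raw counts per gene. The submitters' processing notes list STAR 2.7.7a, FastQC 0.11.9, edgeR 3.36.0 and the build hg38. The table's coordinates are those of the mouse build GRCm38: 54587 of 55335 identifiers matched GENCODE M21, and all of these had the same coordinates. The counter, its strand setting and the handling of shared reads were not given in the sources used here. TBI replicate 2 was not analysed here, and repeated amplification products counted as separate reads, so intervals and floors reflect counting error alone.

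Counts entered edgeR 4.0.16 in R 4.3.3. Genes were kept by filterByExpr (minimum count 10, minimum total 15), scaled with TMM factors and fitted with 1 coefficient per group over all 14 libraries (glmQLFit, robust, and glmQLFTest). Benjamini-Hochberg adjustment ran over all 21509 tested genes of each of 6 contrasts, with a threshold of 0.05. The SE was the absolute log2 change over the square root of F. Single genes' CPM used TMM-scaled library sizes, and so did the sums over roles and cell division genes, while marker sums used total counts. Fold changes of groups with 0 counts were set against a floor of 3 counts in the library with the higher floor, 0.183 CPM. Ratios from 1 count per library have exact 95% Poisson intervals. No pair of replicates agreed within sampling noise (lowest chi-square per gene 17.2). The fit was tested on simulated counts.

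The members, roles and lists were chosen with earlier results of these data known. All members are named. Values per library are given for up to 3 called members with the largest rise and the largest fall in each contrast against untreated and between the RIT groups, and for Atm, Atr, Prkdc, Chek1, Chek2, Parp1, Xrcc5 and Xrcc6. Other pathway genes are named by the same rule of up to 3 each way, except 1 that is not reported here. Genes outside the rule were chosen after their values were seen. Alternatives were median-of-ratios (RLE) factors, no scaling, no filter, DESeq2 1.42.0, a replicate block, each replicate left out in turn and, chosen after seeing the data, a term for library numbers of 10 and above.

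Promoter windows and sequences came from RefSeq on GRCm38.p6, matched by symbol, and exon overlaps from GENCODE M21.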

Additional observations from a re-analysis of the deposited data

Results flagged for a closer look

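In 6 of 96 groups of 4 or 5 libraries tested with Dixon's criterion at the 95% level, 1 library lay far from the rest of its group, and chance gives about 1 in 20. TBI replicate 6 was the highest TBI library for Trp53bp1 at 106 CPM (57.0 to 64.2 CPM in the others), for H2afx at 671 CPM (278 to 374 CPM) and for Bard1 at 23.7 CPM (12.1 to 13.996 CPM). It was the lowest for Xrcc6 at 99.6 CPM (217 to 255 CPM) and for Parp1 at 95.3 CPM (282 to 303 CPM). TBI replicate 4 was the highest for Rad54l at 204 CPM, against 160.0 to 170.4 CPM.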

How the results depend on the processing

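The number of members called moved by over 1.5 times under these settings. DESeq2 called 4 members after TBI, 10 after IgG RIT and 5 between IgG RIT and TBI. Of all 21509 tested genes, DESeq2 called 2467 higher and 3475 lower after IgG RIT, and 771 and 1326 between IgG RIT and TBI. With the replicate block the counts were 0 after TBI, 2 after IgG RIT, 10 in CD45 RIT against untreated and 9 against TBI. Of all tested genes that fit called 0.0139% higher and 0.163% lower after TBI, and 3.76% and 5.83% after IgG RIT. In CD45 RIT it called 7.65% and 11.2% against untreated, and 8.01% and 9.46% against TBI. The other 2 contrasts stayed within 1.5 times. The deviations of same-numbered libraries had correlations of -0.09 to 0.139, not all over 0.1, so the numbers were not taken as pairs. With the library number term, chosen after seeing the data, counts were 0 after IgG RIT and 0 between IgG RIT and TBI. Of all tested genes that fit called 0% higher and 0.0883% lower after IgG RIT, and 0% between IgG RIT and TBI. In CD45 RIT the counts were 9 against untreated (4.4% higher and 7.04% lower over all tested genes) and 12 against TBI (10.3% and 10.8%). Parp1 after IgG RIT turned to 0.37. With RLE factors 0 were called between IgG RIT and TBI, beside 0.0558% higher and 0.149% lower over all tested genes. Leaving out 1 replicate gave 0 to 1 after TBI, 2 to 4 after IgG RIT, 12 to 39 for CD45 RIT against untreated, 14 to 42 against IgG RIT, 15 to 39 against TBI, and 0 to 3 between IgG RIT and TBI. The shares over all tested genes moved in these fits too. Between IgG RIT and TBI, the 3 members were called without TBI replicate 6. In that fit 3.75% of all tested genes were called higher and 5.66% lower. The upper ends for CD45 RIT came with replicate 2 alone, and the shares over all tested genes for those fits are given above. In fits without a CD45 RIT library, the lone library left is assumed to vary like the other groups. A member at 0 counts may be present below the floor of 3 counts.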
